A study of Mus musculus with 4 samples.

Results

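The genes described here are the 5 lysyl oxidases (Lox, Loxl1, Loxl2, Loxl3 and Loxl4), the 3 lysyl hydroxylases (Plod1, Plod2 and Plod3) and 2 proline hydroxylase genes (P4ha3 and P3h1). They are 10 of the 32285 genes counted and were chosen by name, with earlier results of these data known. Quadriceps and diaphragm, both from wild-type (WT) and from mdx5cv animals, all mice aged 14 weeks, gave the mononuclear cells; mdx5cv is a dystrophin-deficient strain used as a model of Duchenne muscular dystrophy. The cells were cryopreserved, thawed and sequenced with droplet chemistry that counts each transcript once at its 3′ end as a unique molecular identifier (UMI). Each muscle of each genotype was 1 group with 1 library, and the number of animals behind a library is not in the labels. Unless a sentence says otherwise, 4 values in a row run from WT quadriceps to WT diaphragm, then from mdx5cv quadriceps to mdx5cv diaphragm. Whole muscle fibres are not among mononuclear cells, so their own transcripts are outside this comparison.

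Collagen chains are modified in the endoplasmic reticulum before they are secreted. Prolyl hydroxylases act on proline residues and stabilise the triple helix, and lysyl hydroxylases turn lysine into hydroxylysine, which decides the kind of crosslink that can form. Outside the cell, lysyl oxidases, which are copper-dependent enzymes, convert lysine and hydroxylysine in collagen and elastin to aldehydes that condense into crosslinks. In fibrotic muscle these crosslinks stiffen the matrix, and fibro/adipogenic progenitors (FAPs), the Pdgfra-positive mesenchymal cells between the fibres, are known as its main matrix producers.

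RefSeq promoter entries on GRCm38.p6 were used for 5 of the 10 genes. Whether RefSeq holds entries for the other genes was not established here. The 250 bases before the transcription start are printed, 5′ to 3′ on the gene's strand, for 3 genes whose patterns contrast below: P4ha3, which had the highest mdx5cv to WT ratio, Plod3, which was detected broadly, and Loxl4, which was highest in tendon-like cells. Capitals mark matches, on either strand, to 5 motifs. They are GGGCGG (the GC box), CCAAT (the box of that name), ACGTG (the core of a hypoxia response element), TATAAA (the box bound by TBP) and TGANTCA (the AP-1 site).
P4ha3: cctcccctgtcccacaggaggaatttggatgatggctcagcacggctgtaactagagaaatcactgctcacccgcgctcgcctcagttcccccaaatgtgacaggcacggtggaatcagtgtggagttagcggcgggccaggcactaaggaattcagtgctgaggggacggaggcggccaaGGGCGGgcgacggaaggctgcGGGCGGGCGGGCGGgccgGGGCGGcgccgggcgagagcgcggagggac
Plod3: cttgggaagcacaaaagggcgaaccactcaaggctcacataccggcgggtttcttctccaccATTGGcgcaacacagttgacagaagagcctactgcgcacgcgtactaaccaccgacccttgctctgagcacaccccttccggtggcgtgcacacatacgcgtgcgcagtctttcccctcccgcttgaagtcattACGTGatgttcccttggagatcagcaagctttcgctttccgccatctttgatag
Loxl4: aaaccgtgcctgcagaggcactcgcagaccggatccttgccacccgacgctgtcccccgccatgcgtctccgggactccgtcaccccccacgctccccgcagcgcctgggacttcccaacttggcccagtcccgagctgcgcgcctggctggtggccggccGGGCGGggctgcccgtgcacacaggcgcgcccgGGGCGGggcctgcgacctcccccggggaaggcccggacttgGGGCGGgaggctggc

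These windows are chr7:100285270-100285519 (plus strand) for P4ha3, chr5:136986769-136987018 (plus strand) for Plod3 and chr19:42612807-42613056 (minus strand) for Loxl4. The P4ha3 window held 5 GC boxes, of which 3 overlap in 1 run of capitals, and the Loxl4 window held 3. A GC box occurred in 32.7% of 32851 mouse promoter windows of the same length. No GC box was found in the Plod3 window, which held 1 CCAAT match (found in 33.8% of windows) and 1 ACGTG match (16.6%). TATAAA (12.4% of windows) and TGANTCA (6.75%) matched in none of the 3. Of the sequences bound by SMAD proteins, GTCTAGAC (0.167% of windows) matched in none of them, and CAGAC (42.2%), left in lower case, matched only in the Loxl4 window. GC content was 67.2% for P4ha3, 55.6% for Plod3 and 76% for Loxl4, against a median of 52.4% over all windows. A match describes these letters and is not evidence of binding.

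After filtering, 4911 and 7516 cells remained in the WT quadriceps and diaphragm libraries and 8334 and 7402 in the mdx5cv ones, and median UMIs per cell ran from 2055 in WT quadriceps to 5328.5 in mdx5cv quadriceps. Each cell was assigned to the class of which it showed the most of 6 fixed marker genes, with at least 3 detected and a lead over every other class; neither the markers nor the rule used any of the 10 genes. FAP-like cells numbered 999, 6320, 1456 and 3110, and their median cell showed 6 of 6 FAP markers and 1 marker of the next class. They made up 20.3% and 84.1% of cells in the WT libraries, quadriceps first, and 17.5% and 42.0% in the mdx5cv ones, so libraries differed widely in make-up and all values below are within a class. Between 80 and 122 FAP-like cells per library were near the limit, with only 3 FAP markers detected or a lead of only 1 marker. From 5 to 17 barcodes were shared between any pair of libraries. Levels are UMIs of a gene per 1000000 UMIs of the class (CPM), which do not scale with transcript length because each molecule is counted once.

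With 1 library per group there is no replicate error and no test. Brackets give exact 95% intervals for counting error only, and a gene is called higher or lower when its ratio was at least 1.5-fold with an interval excluding 1, among genes averaging at least 2 CPM over the libraries compared.

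In FAP-like cells, 8 of the 10 genes were higher in mdx5cv than in WT quadriceps, and 6 of the 10 in diaphragm. None was lower in either muscle. P4ha3 had the highest ratio in both, and Loxl2 and Loxl4 were called in neither. The same call was reached by 18.5% of the 12198 genes tested in quadriceps and 13.5% of the 11674 in diaphragm, while 15.6% and 10.5% were lower. The median log2 ratio of the 10 genes was 1.44 in quadriceps and 0.71 in diaphragm, against 0.05 and 0.08 over all genes tested.

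Lox, the founding lysyl oxidase, stood at 128 CPM in WT and 479 in mdx5cv quadriceps, and at 159 CPM in WT and 311 in mdx5cv diaphragm. Both mdx5cv libraries lay above both WT libraries, and the quadriceps pair lay further apart. Its mdx5cv level was 3.73 times the WT level in quadriceps (3.40 to 4.11), against 1.95 times in diaphragm (1.88 to 2.03). Lox lies at chr18:52516067-52529867 on the minus strand (GENCODE M21, GRCm38).

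Loxl1, the family member most closely tied to elastic fibres, was the most abundant of the 10 in FAP-like cells of every library, at 301 and 383 CPM in the WT muscles and 649 and 554 CPM in the mdx5cv muscles, quadriceps first. Again both mdx5cv values exceeded both WT values. The ratio was 2.16 (2.02 to 2.30) in quadriceps, whereas in diaphragm it was 1.45 (1.41 to 1.49), just under the 1.5-fold limit.

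Loxl2, a lysyl oxidase with scavenger-receptor domains, behaved differently from the other abundant members. Its quadriceps levels were 242 CPM in WT and 255 in mdx5cv, and its diaphragm levels 176 CPM in WT and 128 in mdx5cv. The muscles rather than the genotypes separated these values, with quadriceps higher than diaphragm in both genotypes. The quadriceps ratio was 1.05 (0.977 to 1.14), and the diaphragm value was 1.38-fold (1.31 to 1.45) below WT, short of the call.

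Loxl3, a closely related enzyme, was measured at 53.1 and 51.3 CPM in WT quadriceps and diaphragm, which do not differ beyond their counting intervals, and at 160 and 73.0 CPM in mdx5cv quadriceps and diaphragm. In quadriceps its ratio was 3.02 (2.60 to 3.52), and in diaphragm 1.42 (1.32 to 1.53), again just short of the call. Loxl4 was close to the detection limit in FAP-like cells, at 3.79, 2.38, 5.37 and 3.18 CPM from 14, 73, 55 and 60 UMIs. Its ratios of 1.42 (0.777 to 2.76) in quadriceps and 1.34 (0.934 to 1.91) in diaphragm left a difference undetectable at this depth.

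Among the lysyl hydroxylases, Plod1, which acts mainly on the collagen helix, had levels of 61.7 and 49.9 CPM in WT quadriceps and diaphragm and of 126 and 97.8 CPM in their mdx5cv counterparts. The ratios, 2.03 (1.77 to 2.35) for quadriceps and 1.959 (1.83 to 2.10) for diaphragm, were nearly equal. Plod2, whose product hydroxylates the collagen telopeptides and so favours the mature crosslinks known from fibrotic tissue, was at 52.3, 85.0, 191 and 181 CPM in the same order. Its mdx5cv values nearly coincided, and the ratio was larger in quadriceps (3.66, 3.16 to 4.27) than in diaphragm (2.13, 2.02 to 2.24) on a lower WT level. Plod3, which also carries glycosyltransferase activity, was at 37.4, 49.9, 110 and 80.5 CPM, with ratios of 2.94 (2.46 to 3.54) and 1.61 (1.502 to 1.73).

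P4ha3, a catalytic alpha subunit of prolyl 4-hydroxylase, was nearly undetected in WT FAP-like cells, with 7 UMIs (1.90 CPM) in quadriceps and 63 UMIs (2.06 CPM) in diaphragm. In mdx5cv it reached 745 UMIs (72.7 CPM) in quadriceps and 454 UMIs (24.1 CPM) in diaphragm. The quadriceps ratio was 38.4 (18.5 to 95.7), an interval made wide by the 7 WT UMIs, and the diaphragm ratio 11.7 (8.99 to 15.5). P3h1, the prolyl 3-hydroxylase of the complex with Crtap and cyclophilin B, was at 26.5, 29.6, 66.4 and 49.4 CPM, with ratios of 2.504 (2.02 to 3.13) and 1.67 (1.52 to 1.83).

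**Figure D1:**
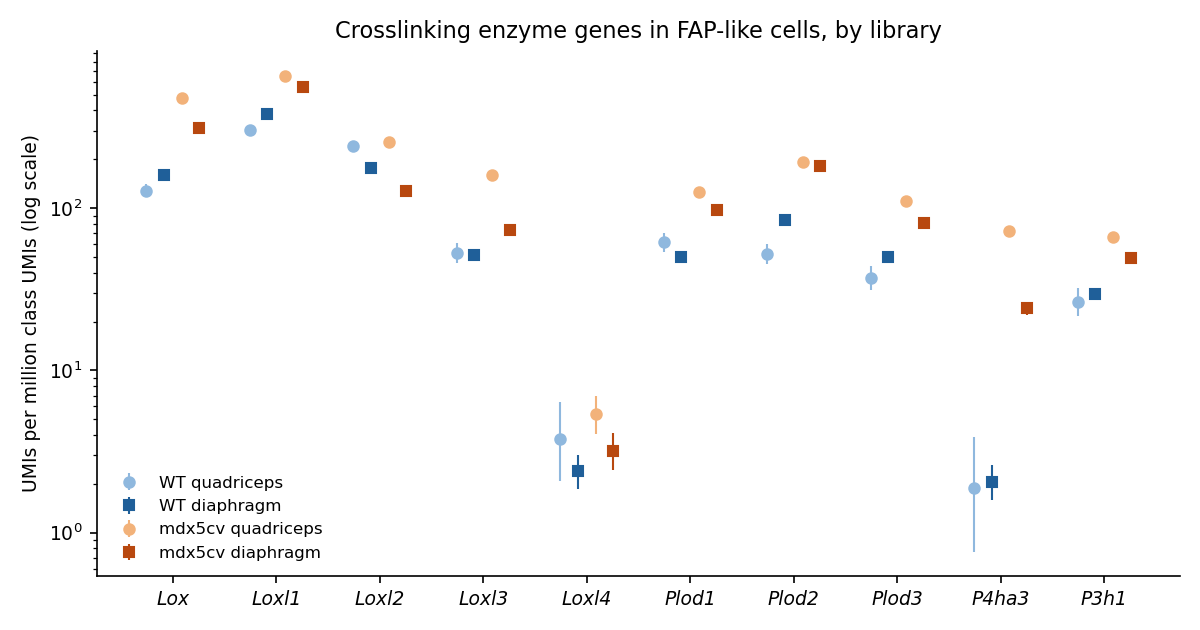
Level of each gene in FAP-like cells of the 4 libraries, as CPM on a log axis; bars are exact 95% Poisson intervals for counting error. P4ha3 sits near 2 CPM in both WT libraries and at 72.7 and 24.1 CPM in mdx5cv, while Loxl4 stays between 2.38 and 5.37 CPM in all 4.

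The log2 ratio was larger in quadriceps than in diaphragm for 8 of the 10 genes with an interval of the difference excluding 0. The largest differences were 1.71 (0.57 to 2.85) for P4ha3, 1.09 (0.85 to 1.33) for Loxl3 and 0.93 (0.79 to 1.08) for Lox. For Plod1 the difference was 0.05 (-0.17 to 0.28), an interval that included 0 and covers counting error only. For Loxl4 it was 0.08 (-0.90 to 1.06), an interval too wide to place it. The Loxl2 difference of 0.54 (0.41 to 0.67) came from a diaphragm value below WT. These are differences between 4 libraries, not tests of the muscles.

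**Figure D2:**
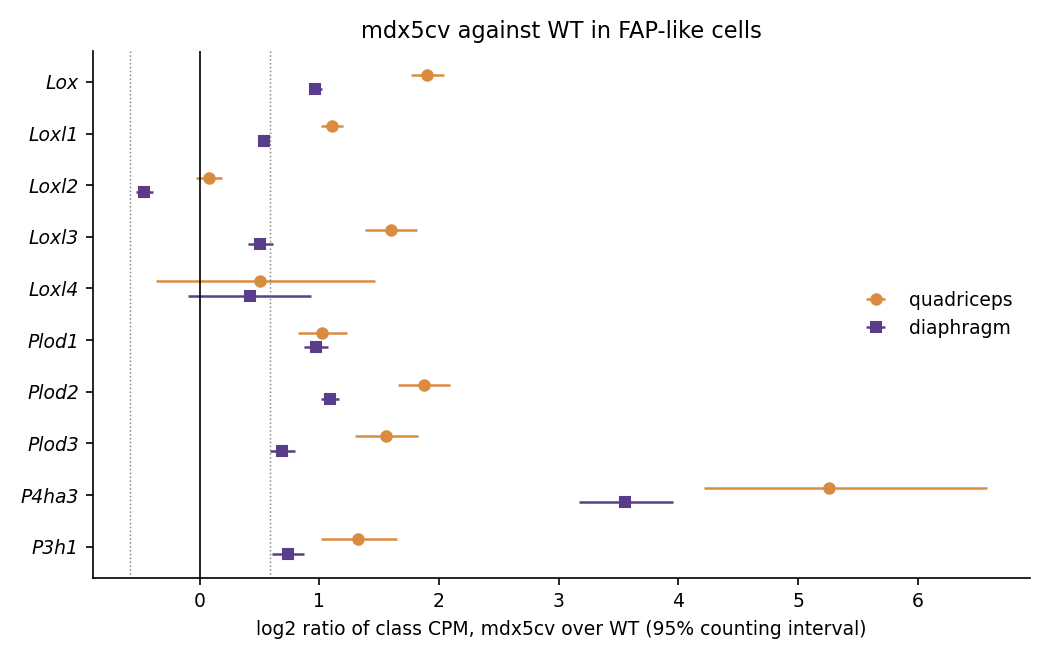
Log2 ratio of mdx5cv over WT in FAP-like cells, with exact 95% counting intervals, for quadriceps (circles) and diaphragm (squares); dotted lines mark 1.5-fold and the solid line no difference. P4ha3 lies farthest right in both muscles, Loxl2 lies at or left of the solid line, and the diaphragm points of Loxl1 and Loxl3 lie just left of the 1.5-fold line.

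The make-up of each family also differed between the genotypes. The 5 lysyl oxidases together were at 729 and 772 CPM in the WT muscles and 1550 and 1069 CPM in the mdx5cv muscles, quadriceps first, a ratio of 2.13 (2.04 to 2.22) for quadriceps and 1.38 (1.36 to 1.41) for diaphragm. Lox made up 17.6% and 20.6% of these UMIs in the WT muscles and 30.9% and 29.1% in mdx5cv quadriceps and diaphragm. Loxl2 had 33.2% and 22.8% in WT and 16.5% and 12.0% in mdx5cv. The Loxl2 share was thus lower, and the Lox share higher, in both mdx5cv libraries, while Loxl1 kept 41.3% to 51.9% in all 4. The 3 lysyl hydroxylases together were at 151, 185, 427 and 359 CPM, with ratios of 2.82 (2.58 to 3.09) and 1.94 (1.88 to 2.01). Among them Plod1 led in WT quadriceps with 40.8% and Plod2 led in the other 3 libraries with 44.8% to 50.4%.

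**Figure D3:**
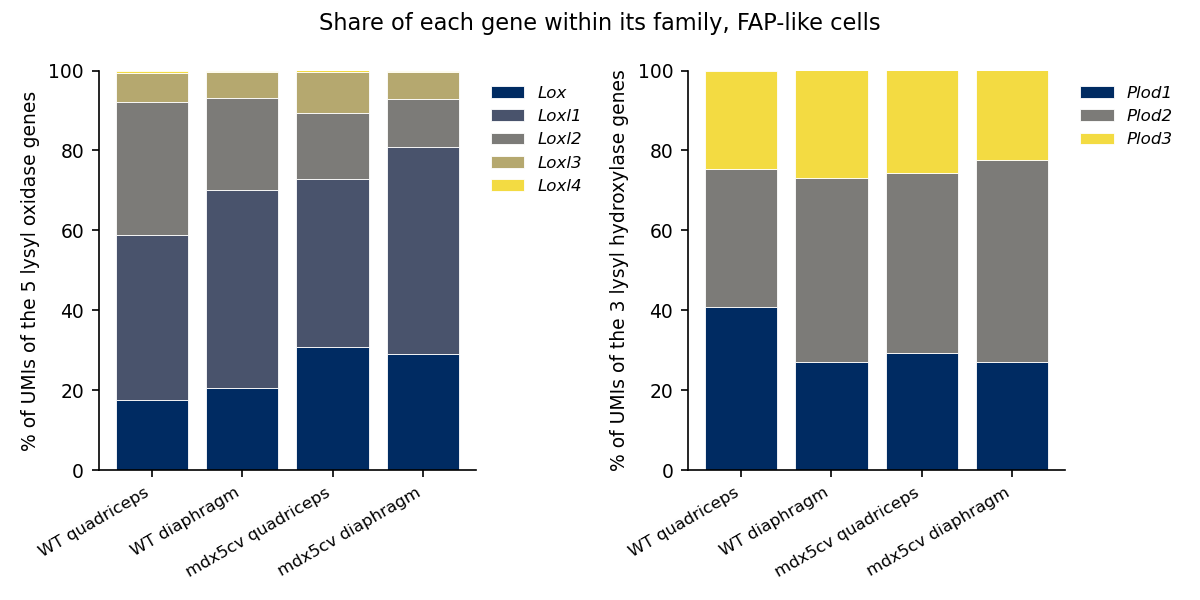
Percentage of the UMIs of the 5 lysyl oxidase genes (left) and of the 3 lysyl hydroxylase genes (right) that each gene contributed in FAP-like cells, by library. Lox takes 17.6% and 20.6% of the oxidase UMIs in WT and 30.9% and 29.1% in mdx5cv, where Loxl2 takes 16.5% and 12.0%.

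The share of FAP-like cells with at least 1 UMI moved with the levels. Lox was found in 18.4% of WT and 59.1% of mdx5cv cells in quadriceps, and in 38.1% of WT and 61.0% of mdx5cv cells in diaphragm. FAP-like cells differed in depth, with median UMIs of 3482, 4537, 5236.5 and 4907.5, so each cell was also thinned to 1000 UMIs. Thinned shares for Lox were 7.41%, 13.2%, 24.7% and 22.0%, again higher in both mdx5cv libraries. P4ha3 was found in 0.701% and 0.949% of WT cells, and in 23.2% of mdx5cv quadriceps and 10.9% of mdx5cv diaphragm cells. After thinning, P4ha3 was seen in 0 of 999 WT quadriceps cells, which allows a share of up to 0.3003% (3 of 999 cells), and in 0.0633%, 4.46% and 1.58% of cells in the other libraries. Even in mdx5cv, most FAP-like cells therefore had no P4ha3 UMI at this depth. At least 1 lysyl oxidase UMI was present in 79.1%, 90.4%, 93.3% and 93.4% of FAP-like cells as counted. B-like cells, which should lack these genes, had Lox in 0.461% of cells in WT diaphragm and 0.642% in mdx5cv diaphragm, at median depths of 2624 and 2984 UMIs. P4ha3 was found there in 0 of 217 cells (up to 1.38% by the same limit) and in 0.428%. These shallower and fewer cells cannot place the WT P4ha3 shares of FAP-like cells against a background.

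FAP-like cells were next divided by 5 fixed markers per state into a progenitor state (Pi16, Dpp4 and others), a parenchymal state (Col15a1, Smoc2 and others) and an injury state (Postn, Tnc, Cthrc1, Adam12 and Ccn4), none of them among the 10 genes. Injury-state cells were 5 of 999 and 7 of 6320 in WT, and 371 of 1456 (25.5%) and 736 of 3110 (23.7%) in mdx5cv quadriceps and diaphragm. The progenitor state held 38.7% and 30.02% of FAP-like cells in WT and 8.79% and 5.53% in mdx5cv, and the parenchymal state held 42.8% to 45.6% in all libraries. Injury-state cells were deeper, with median UMIs of 11027 and 8901 in mdx5cv quadriceps and diaphragm against 4483 and 3979 in the parenchymal state. A state is a range of detected marker counts, and the part of depth in the results below was not tested.

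Within mdx5cv, 6 of the 10 genes were higher in the injury than in the progenitor state in each muscle, the same 6 both times (Lox, Loxl3, Plod1, Plod2, P4ha3 and P3h1), and none was lower. Over all genes tested, 9.45% in quadriceps and 8.31% in diaphragm were higher, and 11.6% and 13.3% lower. Lox was at 671 CPM in the injury, 278 in the parenchymal and 272 in the progenitor state of mdx5cv quadriceps, and at 371, 269 and 227 CPM in mdx5cv diaphragm. The injury state was the highest in both muscles, by 2.47-fold (2.13 to 2.88) over the progenitor state in quadriceps and 1.63-fold in diaphragm. Loxl3 followed the same order, with 231, 98.3 and 81.4 CPM in quadriceps and 92.5, 60.8 and 35.0 CPM in diaphragm. Plod2 was at 250, 139 and 103 CPM and at 226, 147 and 100 CPM. P4ha3 had its lowest value in the parenchymal state, with 119 CPM in the injury, 24.3 in the parenchymal and 43.6 in the progenitor state of quadriceps, and 40.6, 11.0 and 22.7 CPM in diaphragm. Loxl1 was not called between states, with injury over progenitor ratios of 1.18 (1.07 to 1.30) in quadriceps and 0.998 (0.919 to 1.09) in diaphragm.

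Against the parenchymal state, 5 of the 10 genes were higher in the injury state in quadriceps (8.18% of all genes) and 4 in diaphragm (6.43%), with none lower (11.7% and 13.2%). Loxl3, Plod2, P4ha3 and P3h1 were called in both muscles, and Lox in quadriceps only, at 2.41-fold. The P4ha3 ratios were 4.88 in quadriceps and 3.68 in diaphragm. Plod1 and Loxl1 were not called, although the Loxl1 ratios of 1.48 (1.40 to 1.57) in quadriceps and 1.23 (1.17 to 1.29) in diaphragm both excluded 1. Plod1 was in fact at 125 CPM in the injury and 144 CPM in the parenchymal state of mdx5cv quadriceps.

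The genotypes also differed within a state. In the progenitor state, 7 of the 10 genes were higher in mdx5cv than in WT quadriceps (11.1% of all genes) and 2, Lox and P4ha3, in diaphragm (9.52%), with none lower (7.28% and 5.65%). In the parenchymal state the counts were 7 in quadriceps (13.7% of all genes) and 4 in diaphragm (14.5%), again with none lower (12.0% and 8.43%). Lox in the progenitor state was at 59.8 CPM in WT quadriceps and 114 in WT diaphragm, against 272 and 227 in mdx5cv, ratios of 4.55 and 1.99. In the parenchymal state it was at 162 and 176 against 278 and 269 CPM, ratios of 1.72 and 1.53. P4ha3 in the parenchymal state was at 1.29 and 0.805 CPM in WT, from 2 and 10 UMIs, against 24.3 and 11.0 CPM in mdx5cv. The P4ha3 difference between genotypes was therefore also seen among cells gated to the parenchymal state. Such cells can still show injury markers, so this does not place the difference apart from injury marker expression. Within WT diaphragm P4ha3 differed between states, at 3.67 CPM (2.62 to 4.998) in the progenitor and 0.805 CPM (0.386 to 1.48) in the parenchymal state. In WT quadriceps the progenitor state had more Loxl1 (427 CPM) than the parenchymal state (203 CPM) and less Lox (59.8 against 162 CPM) and Plod1 (28.4 against 102 CPM).

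**Figure D4:**
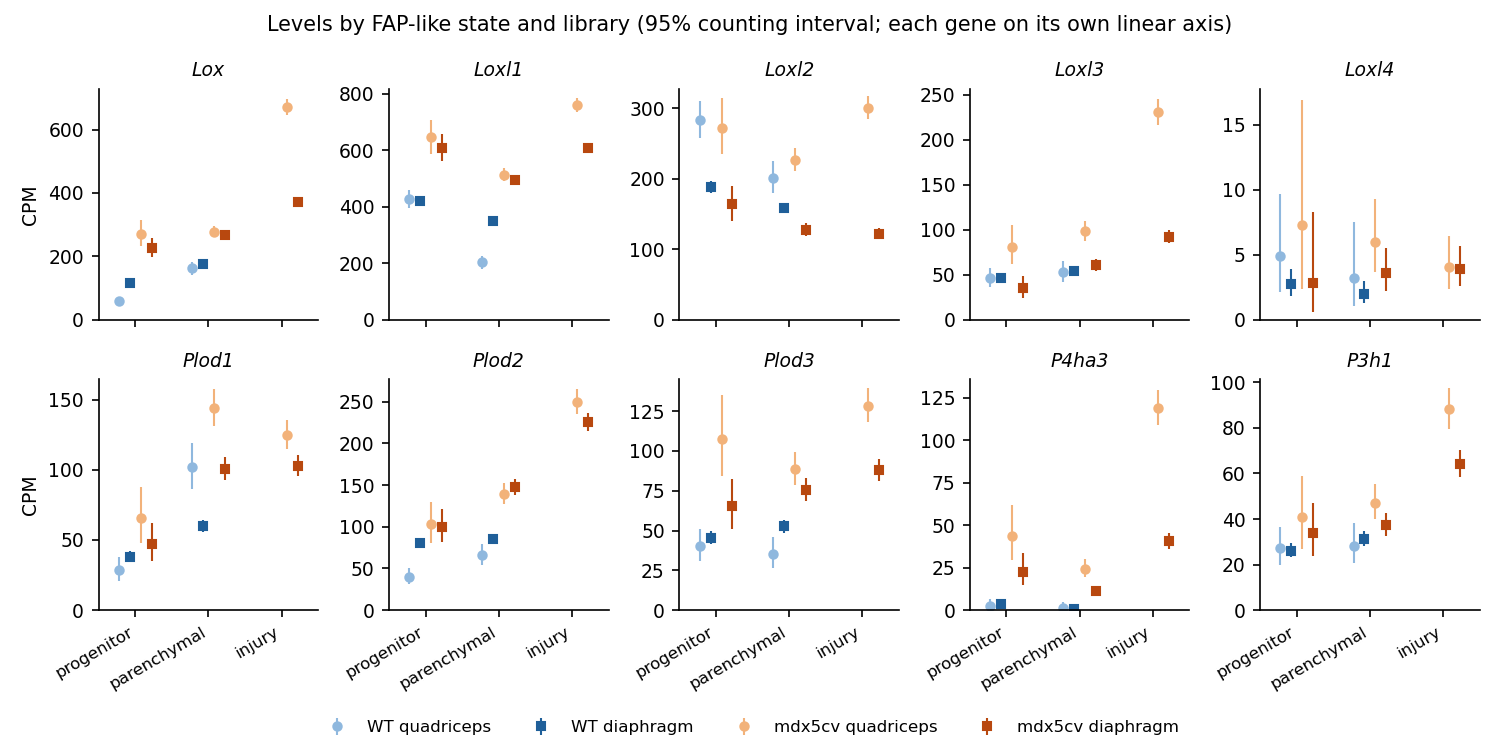
CPM of each gene in the progenitor, parenchymal and injury states of FAP-like cells, with exact 95% counting intervals, for libraries with at least 50 cells in the state (no WT library reached that in the injury state); each gene has its own linear axis starting at 0. Lox, Loxl3, Plod2, P4ha3 and P3h1 are highest in the injury state of both mdx5cv libraries, while in WT quadriceps Loxl1 is higher in the progenitor (427 CPM) than in the parenchymal state (203 CPM).

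Markers of other cells moved with genotype in FAP-like cells. All 6 tenocyte markers were detected in every library, and their summed level was 384 and 1094 CPM in WT quadriceps and diaphragm and 2917 and 3055 CPM in mdx5cv. Thbs4 alone, a matrix glycoprotein of that list, accounted for 121, 944, 2616 and 2857 CPM, while Tnmd, the defining tendon membrane protein, was at 103, 121, 103 and 122 CPM. Scx, a tendon transcription factor, was higher in mdx5cv, at 1.90, 0.424, 16.3 and 4.72 CPM, and Fmod was at 146, 24.9, 173 and 65.5 CPM. Mkx and Kera ran from 0.0326 to 10.6 CPM. FAP-like barcodes with 3 or more tenocyte markers were 2.002%, 3.09%, 7.01% and 5.37% of the class. Without them, a choice made after seeing the data, the counts of higher genes stayed at 8 and 6, and the log2 ratio of Lox in quadriceps was 2.14 against 1.90. Summed phagocyte markers were 203, 47.3, 537 and 244 CPM, and muscle fibre transcripts 8.94, 17.9, 111 and 45.1 CPM. With barcodes showing 3 or more markers of a second, unrelated class left out, both counts were again 8 and 6. The summed FAP markers themselves were lower in mdx5cv, at 24577 and 30177 CPM against 51377 and 50076 CPM in WT. Dcn and Gsn carried most of that sum, and the list did not move as 1, since Dpt was at 876, 1206, 1255 and 1681 CPM and Lum at 1708, 2261, 1595 and 2314 CPM.

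Outside the FAPs, the enzymes were unevenly spread over the classes. Tenocyte-like cells, the tendon fibroblasts, reached the 50 cells required for a comparison only in WT quadriceps. Of those 62 cells, 23 showed only 3 tenocyte markers or led by only 1 marker. There, 6 of the 10 genes were higher than in FAP-like cells (7.87% of all genes) and 1, Loxl1, was lower (6.58%). Lox stood at 1028 CPM against 128 in FAP-like cells, 8.01-fold (6.79 to 9.43) higher and the highest level of any of the 10 genes in any class. Loxl4, at 76.5 CPM from 16 UMIs against 3.79, was 20.2-fold (9.23 to 44.6) higher, and Loxl3, at 191 against 53.1 CPM, 3.60-fold (2.498 to 5.08). The 62 cells gave 27.99% of all Lox UMIs and 47.1% of the 34 Loxl4 UMIs in that library. Loxl1 ran the other way, with 158 CPM in tenocyte-like and 301 in FAP-like cells. P4ha3 was also higher, but from 4 UMIs.

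Mesothelial-like cells, which line the diaphragm, were numerous enough only in WT diaphragm (89 cells). Lox was at 82.2, Loxl1 at 188 and Loxl2 at 138 CPM, and 6 of the 10 genes were lower than in FAP-like cells (10.5% of all genes), with none higher (19.5%). Loxl2, at 176 CPM in FAP-like cells, was among the 4 not called. Pericyte or smooth muscle-like and Schwann-like cells were compared only in WT quadriceps. Loxl2 was the leading lysyl oxidase in both, at 81.7 CPM (17 UMIs) and 79.8 CPM (10 UMIs), below the 242 CPM of FAP-like cells. Of 8 genes tested, 4 were lower in the pericyte group (Lox, Loxl1, Loxl2 and Plod2, 8.55% of all genes) and 3 in the Schwann group (Lox, Loxl1 and Loxl2, 6.95%), with none higher in either (15% and 13.1%).

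With each gene's highest level taken over all classes and libraries, Plod1 alone peaked outside FAP-like and tenocyte-like cells. In endothelial-like cells it stood at 102 and 106 CPM in the WT muscles and 179 and 161 CPM in the mdx5cv muscles, quadriceps first, above FAP-like cells in every library. The ratio to FAP-like cells was 1.66 (1.42 to 1.95), 2.12 (1.29 to 3.29), 1.43 (1.23 to 1.64) and 1.65 (1.41 to 1.93), so the call was reached in 3 of the 4 libraries. In WT quadriceps Plod1 was the 1 of 8 genes tested that was higher in endothelial-like cells (22.6% of all genes), against 6 that were lower (25.6%). It was again the 1 higher gene in WT diaphragm (of 8 tested, 17.3% of all genes) and mdx5cv diaphragm (of 9, 26.7%), and none of 10 was higher in mdx5cv quadriceps (25.6%). Lower were 5 in WT diaphragm (8.71%) and 7 in each mdx5cv library (19.9% in quadriceps, 19.0% in diaphragm). Endothelial-like cells accordingly gave 59.6% of all Plod1 UMIs in WT quadriceps, where they were 53.1% of cells. In mdx5cv quadriceps, where 65.1% of cells were mononuclear phagocyte-like, that class gave 47.9% of Plod1 and 57.4% of Plod3 UMIs, although its CPM values were lower than in FAP-like cells. Lox, by contrast, came from FAP-like cells for 61.7%, 98.5%, 76.2% and 91.9% of its UMIs.

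In mononuclear phagocyte-like cells, Plod3 was the leading gene of the 10 in every library, at 30.5 and 32.6 CPM in WT and 65.4 and 54.0 CPM in mdx5cv, quadriceps first. Plod1 was second, at 21.5, 20.98, 52.0 and 37.8 CPM. All 10 genes were lower in this class than in FAP-like cells of mdx5cv quadriceps (37.9% of all genes), and so were 8 of 8 tested in WT diaphragm (39.2%), 7 of 8 in WT quadriceps (38.9%) and 8 of 9 in mdx5cv diaphragm (37.5%). None was higher in any of the 4 libraries, where 17.7%, 17.8%, 21.5% and 22.7% of all genes were. Plod3 was also at 39.0, 58.2, 90.3 and 60.2 CPM in endothelial-like cells, above FAP-like cells in both WT libraries and below them in both mdx5cv libraries, with overlapping intervals in all 4.

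Muscle stem cell-like cells carried 1 lysyl oxidase above the rest: Loxl1 was at 44.6 and 58.2 CPM in WT and at 229 and 157 CPM in mdx5cv, quadriceps first. It formed 75.8% to 91.7% of the lysyl oxidase UMIs of the class. RNA free in the suspension was read from barcodes of 10 to 100 UMIs and scaled by the level of FAP markers in the class. By this estimate it would carry 2.02, 4.35, 6.82 and 6.98 CPM of Loxl1. Of the 244, 69, 201 and 166 cells, 33, 22, 63 and 54 also showed 3 or more markers of an unrelated class. The source of the Loxl1 UMIs was not tested. For the class as a whole, 7 of 8 genes tested in WT quadriceps (20.6% of all genes) and 10 of 10 in mdx5cv quadriceps (20.8%) were lower than in FAP-like cells. In diaphragm 7 of 9 were lower in WT (14.0%) and 9 of 9 in mdx5cv (24.5%). None was higher in any library, against 12.3%, 10.3%, 20.5% and 20.9% of all genes. This class is loosely defined, as 147 of 244, 40 of 69, 69 of 201 and 65 of 166 cells showed only 3 of its markers or led by only 1.

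**Figure D5:**
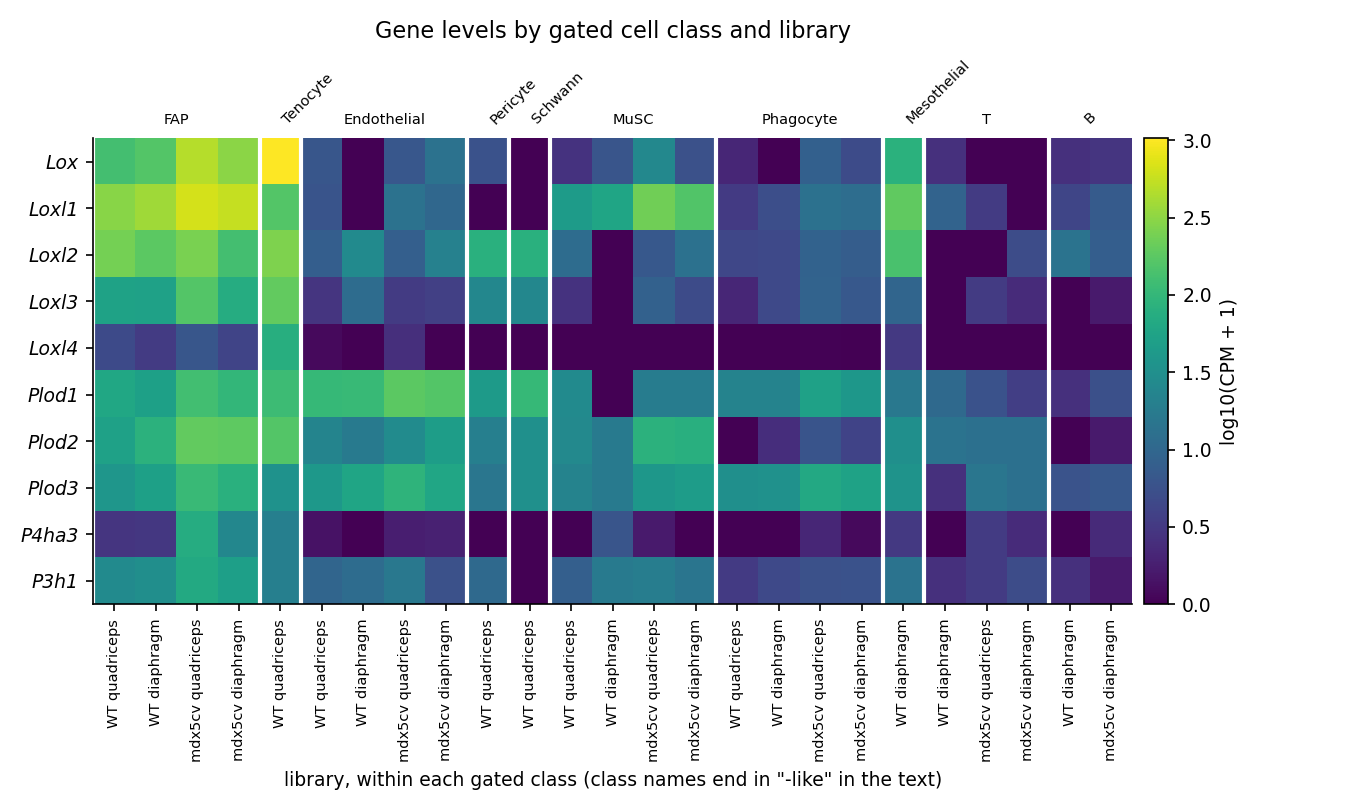
Level of each gene, as log10(CPM + 1), in every class with at least 50 cells, by library. The brightest tile is Lox in tenocyte-like cells of WT quadriceps (1028 CPM); Plod1 and Plod3 stay visible in endothelial and phagocyte columns where the lysyl oxidases are near 0.

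The genotype comparison was repeated in the other classes. In muscle stem cell-like cells, 3 of 8 genes tested were higher in mdx5cv quadriceps (19.1% of all genes) and 2 of 8 in diaphragm (10.4%), with none lower (9.96% and 7.13%). Loxl1 was called in both muscles, with ratios of 5.14 (3.42 to 8.05) in quadriceps and of 2.70 (1.48 to 5.50) in diaphragm. So was Plod2, at 24.98 against 85.7 CPM in quadriceps (3.43-fold, 1.97 to 6.44) and 15.9 against 79.3 CPM in diaphragm (5.001-fold, 1.66 to 24.6, from 3 WT UMIs). Lox was higher in quadriceps on a single WT UMI, 13.7-fold (2.32 to 556). Median UMIs in this class were 2104 and 2377 in WT against 5625 and 5894 in mdx5cv, and after thinning to 1000 UMIs Loxl1 and Plod2 in quadriceps and Loxl1 in diaphragm were still called.

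In endothelial-like cells, 3 of 8 genes tested were higher in mdx5cv quadriceps (17.1% of all genes), with none lower (5.88%). Plod1 was 1.75-fold (1.49 to 2.04) higher, Plod3 2.31-fold (1.82 to 2.92), at 39.0 against 90.3 CPM, and Loxl1 2.51-fold (1.26 to 4.86), at 4.998 against 12.6 CPM. Free RNA, estimated as above, would carry 2.002 and 7.62 CPM of Loxl1, and its call was lost under a minimum of 2000 UMIs (ratio 1.66), under a 5% mitochondrial limit (0.884) and with thinned cells (1.49). Under the other alternatives its ratio was 2.23 to 9.28. In diaphragm 0 of 8 were called in either direction (4.2% of all genes higher, 5.45% lower), on 72 WT cells, which allowed only wide intervals.

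Among mononuclear phagocyte-like cells, 7 of 8 genes tested were higher in mdx5cv quadriceps (20.9% of all genes) and 3 of 7 in diaphragm (19.4%), with none lower (10.2% and 7.89%). Plod1 and Plod3, the 2 genes with the highest levels in this class, were called in both muscles: Plod1 2.42-fold (1.76 to 3.43) and 1.80-fold (1.24 to 2.71), and Plod3 2.14-fold (1.64 to 2.86) and 1.66-fold (1.23 to 2.29). The others were low. In mdx5cv quadriceps Lox was at 7.39 CPM, where free RNA would carry 5.53, and Loxl1 was at 12.3 CPM against 7.12 carried. Plod2 had 0 UMIs in WT quadriceps and was 2.98-fold higher in mdx5cv when WT was set to the floor of 3 UMIs. It was at 5.06 CPM in mdx5cv quadriceps against 2.31 carried. With mixed barcodes left out, the quadriceps count was 4 (Loxl2, Loxl3, Plod1 and Plod3), and with cells thinned to 1000 UMIs it was 1 (Plod3). In diaphragm Plod1 alone was called after thinning, under a 5% mitochondrial limit and under median-of-ratios scaling, each of which brought the count to 1.

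T-like cells could be compared in diaphragm, where 1 of 5 genes tested was higher (Plod3, from 1 to 9 UMIs, 11.4% of all genes) and 1 lower (Loxl1, from 5 to 0 UMIs, 3.16%). B-like cells had 0 of 4 called in either direction (8.54% higher, 3.9% lower). Every one of these counts rests on few molecules. Against FAP-like cells, all genes tested were lower in T-like cells of WT diaphragm (8 of 8, 30.9% of all genes) and mdx5cv diaphragm (9 of 9, 27.4%), and 9 of 10 in mdx5cv quadriceps (21%). The same held for B-like cells of WT (8 of 8, 37.5%) and mdx5cv diaphragm (9 of 9, 44.6%). None was higher in T-like cells (18.4%, 23.7% and 22.4% of all genes) or B-like cells (15.8% and 19.5%).

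The genes that act beside these enzymes were counted in FAP-like cells from fixed lists. Of 24 procollagen processing and folding genes tested of 25 (the other enzymes and chaperones of the secretory pathway), the mdx5cv level was higher for 9 and lower for 3 in quadriceps, and higher for 4 and lower for 2 when the diaphragm libraries were compared, with median log2 ratios of 0.34 and 0.10. Over all genes tested, 18.5% were higher and 15.6% lower in quadriceps, and 13.5% and 10.5% in diaphragm, so the diaphragm counts of 4 and 2 among 24 were near the shares of all genes. P4hb, the beta subunit with which P4ha3 pairs, went from 287 to 757 CPM in quadriceps and from 329 to 516 CPM in diaphragm. The other alpha subunits were not called: P4ha1 had ratios of 1.23 (1.11 to 1.37) and 0.987 (0.944 to 1.03), and P4ha2 of 0.982 (0.876 to 1.10) and 0.838 (0.792 to 0.886). P4ha3 was thus the 1 alpha subunit gene of the 3 that was called, though in mdx5cv quadriceps P4ha1, at 151 CPM, and P4ha2, at 110 CPM, were both above its 72.7 CPM. Fkbp10, a chaperone needed for Plod2 activity on telopeptides, had ratios of 3.79 (3.27 to 4.41) and 2.31 (2.18 to 2.45). P3h2, another prolyl 3-hydroxylase, was 1.86-fold and 1.64-fold higher, and Adamts2, which removes the collagen amino-propeptide, 1.53-fold and 1.93-fold. Pcolce2, an enhancer of carboxy-propeptide removal, was lower in both muscles, from 745 to 89.9 CPM in quadriceps and from 422 to 60.8 CPM in diaphragm. Colgalt2, a collagen galactosyltransferase, was 1.60-fold and 1.72-fold lower.

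The substrates were higher too. Of 7 fibrillar collagen genes tested of 9, 6 were higher in quadriceps (18.5% of all genes) and 7 in diaphragm (13.5%), with median log2 ratios of 1.38 and 1.26. The ratios of Col1a1, quadriceps first, were 5.01 (4.90 to 5.12) and 3.84 (3.80 to 3.88), and those of Col3a1 were 2.80 (2.76 to 2.84) and 2.87 (2.85 to 2.88). Col1a2, Col5a1, Col5a2 and Col11a1 were called in both muscles as well. Among 11 elastic fibre and crosslinking partners, quadriceps had 5 higher and 1 lower (18.5% and 15.6% of all genes) and diaphragm 5 higher and 3 lower (13.5% and 10.5%). Eln, the elastin that lysyl oxidases crosslink, was 3.23-fold and 2.25-fold higher, Pxdn, a peroxidase that crosslinks collagen IV, 1.54-fold and 2.67-fold, and Postn, itself one of the injury markers, 44.5-fold and 12.8-fold. Fbln5, an elastic fibre assembly protein that binds Loxl1, was 2.17-fold and 2.68-fold lower. Lox and Plod2 are known targets of the hypoxia response, so 14 other hypoxia-induced genes were listed. Of the 12 tested, 1 was higher and 4 lower in each muscle (18.5% higher and 15.6% lower of all genes in quadriceps, 13.5% and 10.5% in diaphragm), with Vegfa, Ndrg1, Adm and Ddit4 lower in both, and the median log2 ratios were -0.17 and -0.19.

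The genes with profiles most like each of the 10 were sought among 6511 genes by Pearson correlation of log2(CPM + 10) over the 25 pairs of class and library with at least 50 cells. Pairs from 1 library share its depth and handling, and pairs of 1 class share its identity, so the values describe likeness only. Lox was nearest to Col1a1 (r = 0.949), Cpxm2 (0.941) and Itgbl1 (0.933). Loxl1 was nearest to Col5a1 (0.962), Htra3 (0.934) and Dclk1 (0.930), and P3h1 to Kdelr2 (0.940), Col5a1 (0.927) and Boc (0.904). Plod2 had Gpx7 (0.918), Fkbp10 (0.909) and Sec22b (0.907). P4ha3 was nearest to Cthrc1 (0.914), an injury-state marker, then Fbln7 (0.846) and Mmp3 (0.831). Loxl4 followed Col22a1 (0.986), Cilp2 (0.985) and Kera (0.979), of which Kera is a tenocyte gate marker, a likeness that rests on the single tenocyte-like pair. Loxl2 was nearest to Efemp2 (0.918), Slit3 (0.911) and Snhg18 (0.908), and Loxl3 to Ctsk (0.959), Igsf10 (0.941) and Thbs2 (0.923). The neighbours of the broadly detected genes were of another kind, with Rgl1 (0.926), Rai14 (0.914) and Tmem87b (0.908) for Plod1 and Slc39a1 (0.927), Itga5 (0.862) and Gnaq (0.857) for Plod3.

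In the annotation, the remaining genes lie at chr9:58287738-58313186 (Loxl1), chr14:69609068-69695834 (Loxl2), chr6:83034173-83052562 (Loxl3), chr19:42593982-42612813 (Loxl4), chr4:147909753-147936767 (Plod1), chr9:92542223-92608428 (Plod2), chr5:136987019-136996648 (Plod3), chr7:100285520-100319699 (P4ha3) and chr4:119232915-119248975 (P3h1). On the opposite strand, Loxl3 overlaps Htra2, Plod3 overlaps Znhit1, Plod2 overlaps Gm38391, Loxl2 overlaps Gm27177 and Gm37513, and Lox overlaps a gene that has only a clone name. The sources used here do not state whether counting used strand, so UMIs of these 5 genes may hold some from their neighbours.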

How the data were processed

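Mononuclear cells of 4 muscle samples, 1 library per group, were profiled with a 10x 3′ version 3.1 kit, per the labels' protocols. The deposited matrices hold raw UMI counts per gene and barcode. They were made by the authors with Cell Ranger 5.0.0 on mm10, per the submitters' processing notes, whereas the matrix header names another major version. Their annotation was not given in the sources used here. Positions came from GENCODE M21 (GRCm38), and 32235 of 32285 identifiers were found in it.

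Barcodes with at least 1000 UMIs, at least 500 genes and at most 15% mitochondrial UMIs were kept, which left out 315 to 676 barcodes per library for mitochondrial share. No doublet caller was run. Instead, barcodes with 3 or more markers of a second, unrelated class were left out as an alternative. Class markers, states and pathway lists were set down by name, but the gate that counts them was chosen after the files were seen, and the 10 genes and all lists were chosen with earlier results of these data known. For each library, the UMIs of a class were added up per gene, then divided by their total over all genes. Levels carry exact Poisson intervals, ratios exact conditional intervals and shares Clopper-Pearson intervals, all at 95% and for counting error only. A ratio against 0 UMIs was computed against a floor of 3 UMIs in that library. Classes under 50 cells were not compared. The ratio script was tested on simulated data with 200 genes changed by known folds before it was used.

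All 10 genes are named whatever their values, with listed pathway genes called the same way in both muscles, Col1a1 and Col3a1, and the 3 most alike genes of each. P4ha1 and P4ha2, the other alpha subunits, and the single FAP and tenocyte markers were named after their values were seen. Alternatives changed the UMI minimum, mitochondrial limit, gate, class definition, depth, mixed barcodes, scaling, cell weighting and low-count filter. Computations ran in scanpy 1.11.5, pandas 2.3.3, igraph 0.11.9, numpy 2.4.6, leidenalg 0.10.2, matplotlib 3.10.9, scipy 1.17.1 and Python 3.11.15.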

Additional observations from a re-analysis of the deposited data

How the results depend on the processing

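No paired analysis was possible because each group was 1 library. For the same reason no setting could separate genotype from the animals, handling or depth of a library. In FAP-like cells the counts of higher genes were 8 in quadriceps and 6 in diaphragm under all alternatives except the mean of per-cell CPM, which has no counting interval and gave 9 and 5. Of the recomputed log2 ratios of the 10 genes, 189 stayed within the counting interval of the reported value, 31 left it and no called one changed sign. Dropping the low-count filter could alter neither these ratios nor the counts, because all 10 genes already passed it in both muscles. Calls changed for Loxl4 in quadriceps and P3h1 in diaphragm with cells weighted equally, and for Loxl1 and Plod3 in diaphragm with cells thinned. The log2 ratio of P4ha3 took values of 4.76 to 5.37 for quadriceps wherever WT cells had UMIs. Thinned WT quadriceps cells had 0 UMIs, so that value, 3.94, is against the floor of 3 UMIs and is not a measured ratio. Diaphragm values were 3.23 to 4.70. Leiden clustering gave 25 clusters, in which 98.4% of 26594 gated cells kept their class. Clusters were named by the gate's own markers, so part of this likeness is built in. The share of a cluster's cells that the gate gave the same class ran from 29.4% to 100%, both in clusters named FAP-like. It was 60.7% for the muscle stem cell-like, 56.7% for the tenocyte-like and 49.6% for the pericyte or smooth muscle-like cluster.

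Counts in the other classes rested on fewer UMIs. Under a minimum of 2000 UMIs, a 5% mitochondrial limit, clusters, thinning or removal of mixed barcodes, T-like cells of diaphragm had 0 genes higher and 0 lower. Under the stricter gate and under median-of-ratios scaling they had 0 higher. Phagocyte-like cells of diaphragm had 1 higher under the 5% limit, thinning or median-of-ratios scaling, and those of quadriceps had 1 when thinned and 4 without mixed barcodes. Endothelial-like cells of diaphragm had 1 higher and 1 lower by clusters and 1 lower without mixed barcodes. Muscle stem cell-like cells of diaphragm had 1 higher when thinned. The mean of per-cell CPM gave endothelial-like cells 6 higher in quadriceps, while diaphragm had 2 higher and 3 lower. It gave muscle stem cell-like cells 6 higher and 1 lower in quadriceps and 2 lower in diaphragm, phagocyte-like cells 6 higher in diaphragm, T-like cells 2 higher and 2 lower, and B-like cells 2 higher and 1 lower. The cause was not tested. Median-of-ratios scaling moved the median of all genes by 0.04 and 0.08 (log2) in FAP-like cells and by 0.17 to 0.28 in the other classes, other than endothelial-like cells of diaphragm (-0.01). With under 50 cells, no value was given for endothelial-like cells of diaphragm under the 2000 UMI minimum or the 5% limit, for muscle stem cell-like cells of diaphragm under the 5% limit, the stricter gate or without mixed barcodes, or, under the 5% limit, for muscle stem cell-like cells of quadriceps and B-like cells.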
